A study of Mus musculus with 11 samples.

Results

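The genes described are those of the proteasome, taken as every protein-coding mouse gene whose symbol starts with Psm, a letter from a to g and a number. The rule found 51 genes among 21887 protein-coding genes. Psmc3ip, a partner protein in meiotic recombination, and Psme3ip1, a nuclear partner of an activator, match by name alone and encode no subunit. A gene was counted as called in a library when a peak of that library's list lay within 1 kb of either end of the gene, on the mm10 (GRCm38) build.

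The libraries were made by ChIP-seq from stomach glands, with H3K27ac, found on active promoters and enhancers, in 8 libraries and H3K4me3, found on promoters, in 3. Each H3K27ac group held 2 libraries: Atp4bCre; Rosa26NICD; Arid1aflox/flox (2-allele), Atp4bCre; Rosa26NICD; Arid1aflox/+ (1-allele), Atp4bCre; Rosa26NICD (NICD) and wild type. Each H3K4me3 group held 1 library: Arid1a-floxed, NICD and wild type. The title of the Arid1a-floxed H3K4me3 library reads Het while its genotype label says Arid1aflox/flox, and its allele number stays unknown. All groups but wild type share Atp4bCre, which places Cre under the promoter of a parietal cell gene, and Rosa26NICD, which supplies the active intracellular part of Notch. NICD is the control of the Arid1a groups, so wild type differs from those groups in more than Arid1a. The Arid1a protein belongs to SWI/SNF, a complex that moves nucleosomes. The title of the series gives the dosage of Arid1a in gastric tumour formation as its subject. Epithelial pellets were pooled before chromatin was prepared, so libraries of a group may share animals, and the sources used here give no age for the mice. The protocol names only an antibody to H3K27ac.

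Tags left after duplicates were removed ranged from 7.96 M to 20.8 M over the 9 libraries that state them, with NICD replicate 2 lowest and at a redundant rate of 0.52. The depth behind both 2-allele lists is unknown. Lists differed widely in length, from 5165 peaks in 1-allele replicate 1 to 41405 in NICD replicate 1 for H3K27ac, and from 5175 (Arid1a-floxed) to 39420 (NICD) for H3K4me3. Both 1-allele lists were the shortest for H3K27ac, and the part of list length in any missing call was not tested. Of 17 gastric epithelium markers, the H3K27ac lists called 7 and 5 in 2-allele and 5 and 2 in 1-allele. They called 12 and 8 in NICD glands, and 12 and 11 in the wild type. All genes were called at 42.6% and 41.2% in 2-allele and at 16.1% and 25.8% in 1-allele. In NICD glands the shares were 53% and 47.3%, and in the wild type 43.1% and 40.9%. For H3K27ac, Atp4b, which marks the parietal cells that express the Cre, was called in 1-allele replicate 1 and both wild-type libraries. It was called in no NICD or 2-allele H3K27ac library. For H3K4me3, Atp4b was called in the Arid1a-floxed and NICD libraries and not in the wild-type one. Atp4a was called in no library of either mark. Epcam, an epithelial gene, and Krt19 were called in all 8 H3K27ac libraries. Cldn18 and Tff1 were called in 1-allele replicate 1 and not in 1-allele replicate 2. Krt8, Krt18, Cdh1 and Muc1, among others, were called in no 1-allele H3K27ac library. At most 2 of 9 fibroblast and muscle markers and 0 of 5 endothelial markers were called in any H3K27ac library. The NICD H3K4me3 list called 6 of those 9 and 1 of those 5, beside 63.5% of all genes, and the other H3K4me3 lists called 0.

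The proteasome is the protease complex that degrades proteins tagged with ubiquitin in the cytosol and nucleus. A barrel of alpha and beta subunits holds the cutting sites inside, and a regulatory cap made of ATPases and non-ATPase subunits binds, unfolds and feeds in substrates. Interferons replace the constitutive catalytic subunits with immunoproteasome subunits, which favour peptides for MHC class I, and Nrf1 (Nfe2l1) raises the transcription of many subunit genes together when proteasome activity falls.

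The promoters the results turn on are shown first. They are the 250 bases upstream of the annotated start, written 5′ to 3′ on the strand of the gene, from RefSeq (GRCm38.p6), with motif matches in capitals. Psmb5, a constitutive catalytic gene (chr14:54617996-54618245, minus strand), Psmb8, its interferon-induced counterpart (chr17:34197945-34198194, plus strand), and Psmb11, the counterpart of the thymus (chr14:54625060-54625309, plus strand), are set side by side because the first was called in most libraries, the second in fewer and the third in none.
Psmb5: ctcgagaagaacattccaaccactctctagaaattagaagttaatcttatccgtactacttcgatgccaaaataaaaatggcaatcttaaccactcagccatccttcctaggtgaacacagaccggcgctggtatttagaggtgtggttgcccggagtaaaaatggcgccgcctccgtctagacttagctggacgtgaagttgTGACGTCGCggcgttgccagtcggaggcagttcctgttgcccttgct
Psmb8: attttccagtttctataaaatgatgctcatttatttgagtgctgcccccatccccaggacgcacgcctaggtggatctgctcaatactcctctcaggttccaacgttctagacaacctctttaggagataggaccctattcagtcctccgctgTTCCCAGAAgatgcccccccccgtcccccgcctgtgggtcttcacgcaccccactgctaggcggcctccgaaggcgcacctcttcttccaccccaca
Psmb11: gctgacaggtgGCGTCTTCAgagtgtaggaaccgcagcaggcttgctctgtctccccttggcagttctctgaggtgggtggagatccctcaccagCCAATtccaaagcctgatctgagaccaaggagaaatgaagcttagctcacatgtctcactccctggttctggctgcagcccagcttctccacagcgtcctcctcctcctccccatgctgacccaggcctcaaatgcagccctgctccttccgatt

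Psmd12 (chr11:107479278-107479527, plus strand), Psmd14 (chr2:61711444-61711693, plus strand) and Psme4 (chr11:30771525-30771774, plus strand) are shown because they carried H3K27ac in all 8 libraries.
Psmd12: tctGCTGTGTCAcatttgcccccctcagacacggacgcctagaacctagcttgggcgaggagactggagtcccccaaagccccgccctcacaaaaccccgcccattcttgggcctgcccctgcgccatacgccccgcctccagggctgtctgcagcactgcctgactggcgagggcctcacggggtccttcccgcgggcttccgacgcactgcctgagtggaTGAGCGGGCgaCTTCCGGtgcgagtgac
Psmd14: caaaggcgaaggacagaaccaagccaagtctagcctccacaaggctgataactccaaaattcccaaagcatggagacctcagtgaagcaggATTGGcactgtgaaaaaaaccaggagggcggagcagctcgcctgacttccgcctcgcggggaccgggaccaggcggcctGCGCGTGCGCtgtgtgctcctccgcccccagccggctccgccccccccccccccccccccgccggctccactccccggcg
Psme4: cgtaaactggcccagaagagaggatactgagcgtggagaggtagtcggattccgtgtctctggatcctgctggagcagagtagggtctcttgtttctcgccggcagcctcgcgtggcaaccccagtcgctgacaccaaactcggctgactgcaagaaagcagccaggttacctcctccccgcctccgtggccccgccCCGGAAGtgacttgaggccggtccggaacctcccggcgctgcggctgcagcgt

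Psmb4 (chr3:94886959-94887208, minus strand) and Psmd8 (chr7:29180674-29180923, minus strand) ranked high in NICD glands and had no peak in either 1-allele library. Psmg3 (chr5:139826895-139827144, minus strand) was the only member with H3K27ac in both NICD libraries and in no wild-type one.
Psmb4: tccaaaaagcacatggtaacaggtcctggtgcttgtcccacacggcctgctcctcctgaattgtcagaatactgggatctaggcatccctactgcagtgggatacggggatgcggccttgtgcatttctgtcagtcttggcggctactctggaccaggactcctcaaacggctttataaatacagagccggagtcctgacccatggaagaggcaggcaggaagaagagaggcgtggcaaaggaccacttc
Psmd8: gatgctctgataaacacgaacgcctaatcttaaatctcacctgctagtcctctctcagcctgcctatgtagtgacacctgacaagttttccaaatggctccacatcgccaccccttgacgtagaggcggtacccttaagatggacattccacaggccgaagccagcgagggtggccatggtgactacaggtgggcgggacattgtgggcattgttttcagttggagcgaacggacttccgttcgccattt
Psmg3: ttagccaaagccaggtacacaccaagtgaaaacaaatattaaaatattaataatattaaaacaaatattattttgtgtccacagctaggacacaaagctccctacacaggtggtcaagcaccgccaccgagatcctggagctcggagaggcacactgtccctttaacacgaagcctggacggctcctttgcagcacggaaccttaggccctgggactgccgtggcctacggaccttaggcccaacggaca

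The capitals mark the antioxidant response element (ARE, TGANNNNGC), the CCAAT box (CCAAT), an Ets site (CCGGAAG), a site for nuclear respiratory factor 1 (GCGCA, any base, GCGC), the interferon-stimulated response element (ISRE, GAAA, any 2 bases, GAAA), the gamma-activated site (GAS, TTCNNNGAA) and an NF-kB site (GGGA, any base, TTTCC), searched on both strands. Where the tighter ARE named below is found, it overlaps the ARE; no other matches overlap in these 9 sequences. An entry of the promoter table was found for 43 of the 51 members. For a gene with several annotated starts, as in 4 of the 43, the start with a peak within 1 kb in the most libraries was used, for members and other genes alike. An Ets site stood in 13 of the 43 (30.2%), against 9.44% of 17492 promoters and 16.2% of the 8706 promoters with H3K27ac in both NICD libraries. The site for nuclear respiratory factor 1 stood in 6 (14.0%), against 5.35% of all and 9.50% of those 8706. The ARE stood in 17 (39.5%), against 35.1% of all. Its tighter form, TGACNNNGC, stood in 5 (11.6%), against 10.5% of all. Psmb5, Psmb6, Psmc6, Psmd9 and Psmd12 were those 5. The CCAAT box stood in 34.9% of members and 36.1% of all promoters. The ISRE stood in 3 members (6.98%), Psmb3, Psmd4 and Psmd9, against 3.02% of all. The GAS stood in 2 (4.65%), Psmb8 and Psmg1, against 6.57% of all. The NF-kB site stood in no member and in 0.366% of all. The median ratio of observed to expected CpG was 0.760 in members and 0.554 in all promoters, and 0.771 in those with H3K27ac in both NICD libraries. Members at the low end were Psme2b (0.105), Psmb11 (0.199) and Psmb10 (0.220). These counts are descriptions of letters and say nothing on which factor binds.

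In the full lists, proteasome promoters were called more often than the average gene in every library, with both marks. H3K27ac was called at 43 and 44 of the 51 members in 2-allele glands, 12 and 27 in 1-allele glands, 46 and 45 in NICD glands, and 43 and 39 in the wild type. The shares of all protein-coding genes called were 42.6% and 41.2% in 2-allele, 16.1% and 25.8% in 1-allele, 53% and 47.3% in NICD glands, and 43.1% and 40.9% in the wild type. As a mean, 85.3% ± 1.39 of members were called in 2-allele, 38.2% ± 20.8 in 1-allele, 89.2% ± 1.39 in NICD glands, and 80.4% ± 5.55 in wild-type glands (SD, n = 2 each). The 1-allele libraries were the lowest of all for the members as for other genes, and they differed most between replicates. H3K4me3 was called at 27 members in the Arid1a-floxed, 47 in the NICD and 44 in the wild-type library, against 19.5%, 63.5% and 47.4% of all genes. With only peaks at a −log10 q-value of at least 5, 1-allele replicate 1 called 5 members (9.80%), against 9.67% of other genes. In the other lists with a q-value the share of members stayed above that of other genes. A peak near a gene can belong to a neighbour, and the lists with a header were called without a control library.

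**Figure D1:**
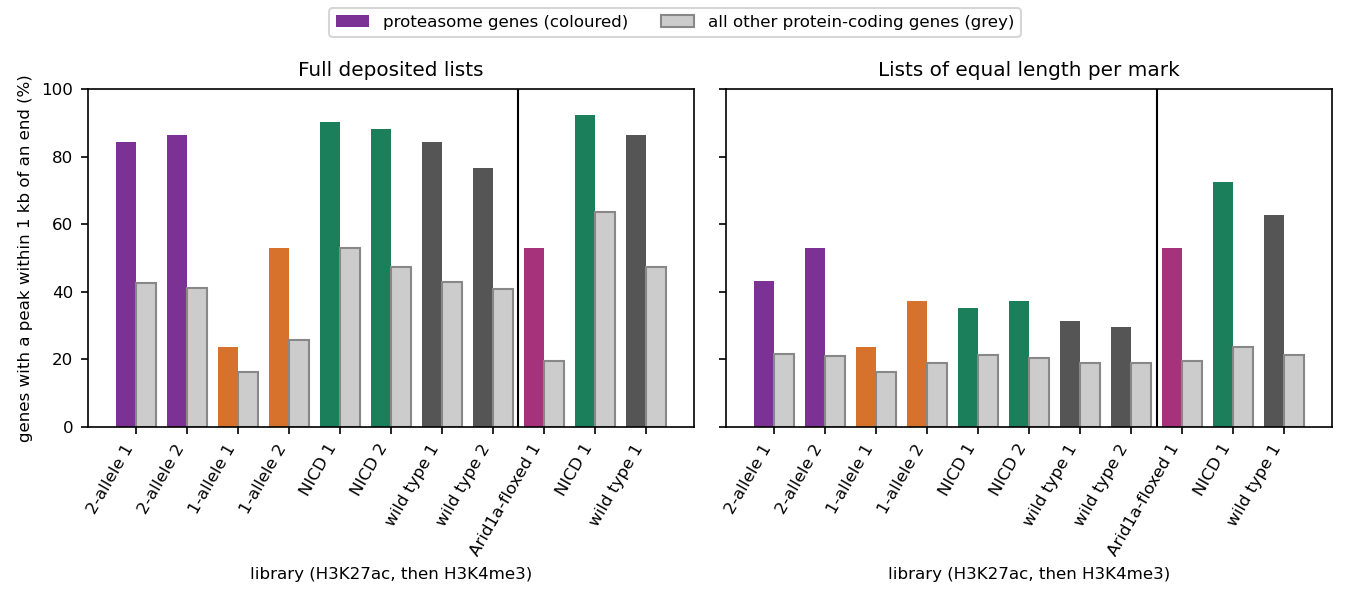
Percent of genes with a peak within 1 kb of an end, for proteasome genes (coloured bars) and all other protein-coding genes (grey bars) in each library, in the full lists (left) and with H3K27ac lists of 5165 and H3K4me3 lists of 5175 peaks (right). The coloured bar stands above the grey bar in all 11 libraries of both panels.

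With lists of equal length the order of the groups changed. In the strongest 5165 peaks, H3K27ac was called at 22 and 27 members in 2-allele (21.6% and 21.1% of all genes), 12 and 19 in 1-allele (16.1% and 18.8%), 18 and 19 in NICD (21.1% and 20.3%), and 16 and 15 in wild-type glands (19% and 18.9%). So 1-allele replicate 2 then equalled NICD replicate 2 in members called, and 1-allele replicate 1 stayed lowest. In the strongest 5175 H3K4me3 peaks the counts were 27 in the Arid1a-floxed, 37 in the NICD and 32 in the wild-type library, against 19.5%, 23.7% and 21.5% of all genes.

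Proteasome peaks were placed by their rank within each list. Each peak was given a percentile in its own list, 100 being the strongest by the authors' q-value, or the first in the file for the 2-allele lists, which carry no score. Percentiles from lists of different length are not compared as changes. For H3K4me3 the median of the called members was percentile 59.5 in the Arid1a-floxed, 94.7 in the NICD and 83.2 in the wild-type library. Other called genes had medians of 48.0, 82.0 and 67.3 in the same libraries. For H3K27ac the medians of the members were 67.5 and 71.9 in 2-allele (others 67.0 and 65.3), 83.2 and 73.8 in NICD (others 83.8 and 75.6), and 66.6 and 66.4 in wild-type glands (others 70.5 and 69.3). In 1-allele glands they were 30.2 and 48.9 (others 52.1 and 55.2). With peaks ranked by fold enrichment the mean of those 1-allele medians was 54.3 instead of 39.5, so it depends on the measure. It was 64.4 with only peaks at a −log10 q of at least 5. That filter drops the lowest-ranked peaks and keeps the percentiles of the full list, so it can only raise the median. Medians of other genes were not computed under these settings. In NICD glands 43 of the 47 members with H3K4me3 lay at or above percentile 75 of the list (91.5%), against 65.5% of other called genes. For H3K27ac that share was 38 of 46 members (82.6%) against 67.4% in NICD replicate 1, and 22 of 45 (48.9%) against 50.9% in replicate 2. With peaks ranked by fold enrichment, the median of the members in NICD glands was percentile 85.6 for either mark.

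**Figure D2:**
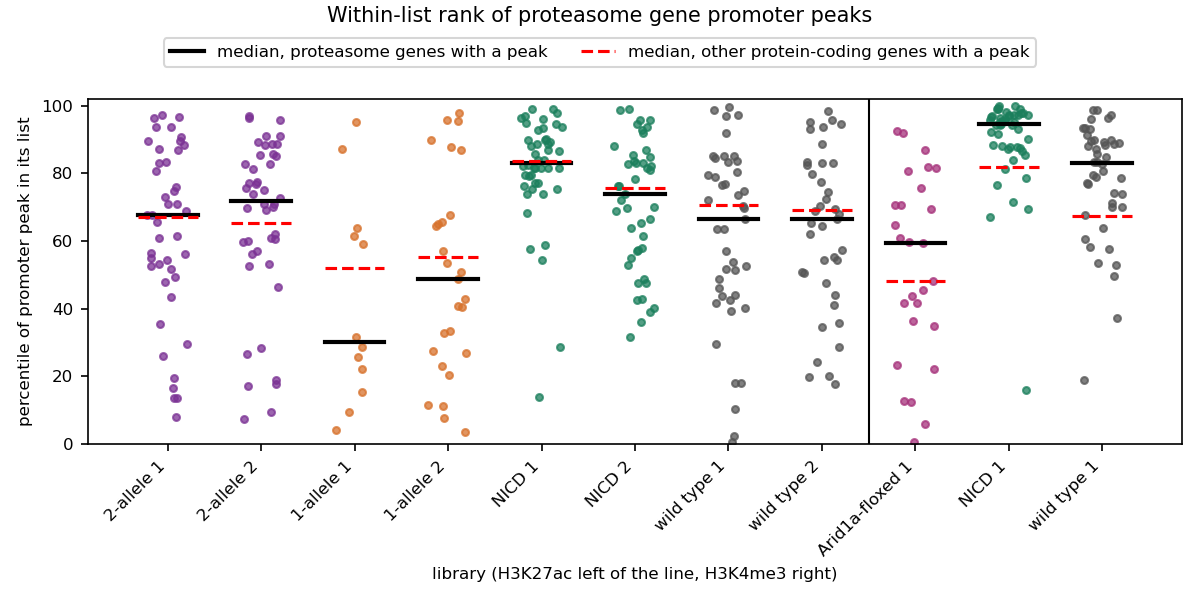
Percentile of each called proteasome gene's strongest promoter peak within its own list (1 point per gene), by library, with the median of the members (black line) and of other called genes (red dashed line). The black line lies above the red one by more than 10 points in all 3 H3K4me3 libraries and below it by more than 20 points in 1-allele replicate 1.

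Peaks sat just downstream of the start, as at other genes. The midpoint of the strongest peak lay a median of 166 to 259 bp downstream of the annotated start over the 8 H3K27ac libraries and 230 to 313 bp over the 3 H3K4me3 libraries. The medians of other genes were 200 to 238 bp and 277 to 295 bp. At 250 bp downstream, H3K27ac peaks covered 69.8% and 72.1% of the members with a known start in 2-allele, 14.0% and 37.2% in 1-allele, 90.7% and 79.1% in NICD glands, and 58.1% and 60.5% in the wild type. At the start itself coverage was lower, at 39.5% and 44.2% in 2-allele, 2.33% and 11.6% in 1-allele, 44.2% and 27.9% in NICD glands, and 11.6% and 11.6% in the wild type. The profile of other genes dipped just upstream of the start in every library. That of the members did so in all but 2-allele replicate 1.

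**Figure D3:**
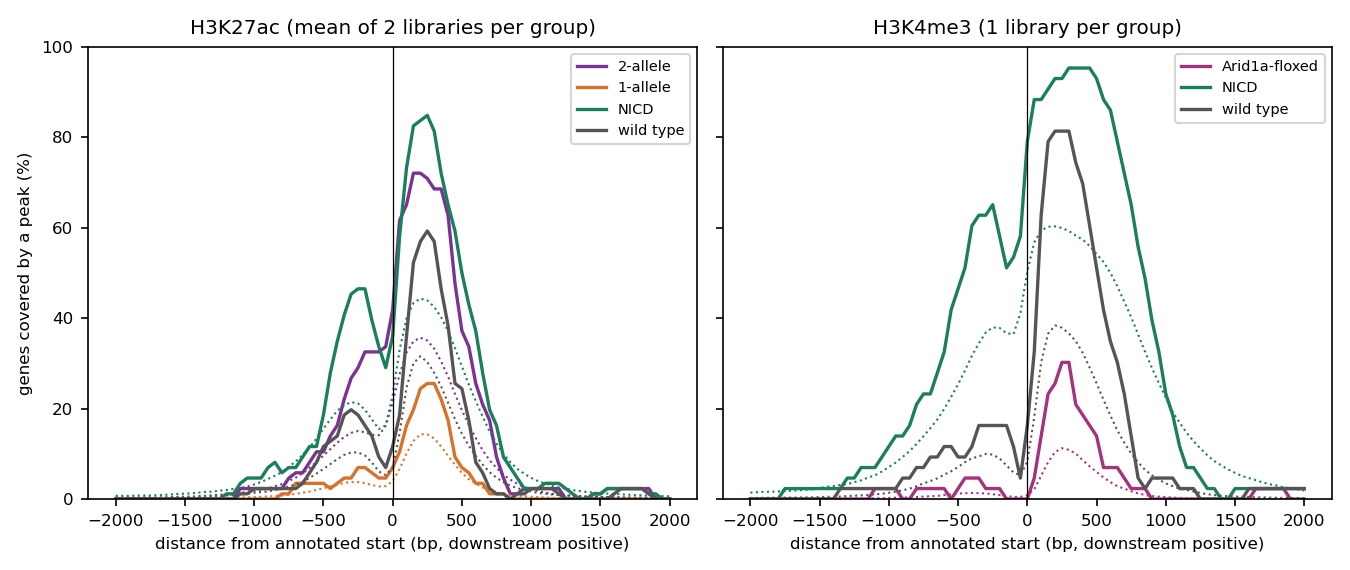
Percent of genes covered by a peak against distance from the annotated start (bp), for 43 proteasome genes (solid) and other protein-coding genes (dotted), as the mean over the libraries of a group for H3K27ac (left) and for single H3K4me3 libraries (right). Solid lines lie above dotted lines of the same colour around 250 bp downstream, and the NICD and wild-type lines dip between 150 and 50 bp upstream of the start.

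Counts by role are to be read beside the shares of all genes called for H3K27ac. In the 1-allele lists these were 16.1% and 25.8%, and in the NICD lists 53% and 47.3%. They were 42.6% and 41.2% in 2-allele and 43.1% and 40.9% in wild-type glands. The alpha ring forms the gate of the barrel. Of its 7 standard genes, 6 and 6 were called for H3K27ac in 2-allele, 1 and 2 in 1-allele, 6 and 6 in NICD glands, and 6 and 6 in the wild type. Psma3 was the one called in all 8 libraries, at percentiles 89.4 and 88.7 in 2-allele, 31.8 and 95.9 in 1-allele, 98.9 and 92.1 in NICD glands, and 85.1 and 79.8 in the wild type. It was high everywhere but in 1-allele replicate 1. Psma1, Psma4, Psma5 and Psma7 were called in every H3K27ac library outside the 1-allele group and in none within it. Psma7 had the highest NICD percentiles of these 4, at 90.1 and 86.9, with a fold enrichment over local background of 8.66 and 8.08 in NICD glands, against 6.79 and 6.16 in wild-type glands. For H3K4me3 the Arid1a-floxed library kept a peak at Psma4 (percentile 12.6) and Psma5 (percentile 92.0) and had none at Psma1 or Psma7. Psma6 was called in no library by its gene ends (chromosome 12, 55384222 to 55418459), although the upstream end of its span is 1 of its 2 annotated starts. A peak lay within 167 bp of its other annotated start, at 55398825, in all 11 libraries.

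The structural beta genes split. Psmb2 (chromosome 4, 126677637 to 126709715) was called in all 11 libraries, at percentiles 96.3 and 85.6 in 2-allele, 59.2 and 97.8 in 1-allele, 96.8 and 93.7 in NICD glands, and 97.3 and 95.2 in the wild type. Its H3K4me3 percentiles were 70.7 in the Arid1a-floxed, 99.9 in the NICD and 93.4 in the wild-type library. Psmb4 (chromosome 3, 94884324 to 94886958) stood at percentiles 70.8 and 26.5 in 2-allele, 88.6 and 83.1 in NICD glands, and 72.2 and 54.4 in the wild type, and had no 1-allele H3K27ac peak. Psmb1 was missing from 1-allele replicate 1 alone. Psmb3 (chromosome 11, 97703434 to 97713500) was the weak one, with H3K27ac in NICD replicate 1 alone, where the summit pileup was 29 reads and the enrichment 2.66-fold. Its H3K4me3 peaks had enrichments of 3.89-fold in NICD glands and 3.56-fold in wild-type glands, with none in the Arid1a-floxed library.

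The 3 constitutive catalytic genes were called in every NICD and wild-type H3K27ac library, and in 1-allele glands 1 was called in replicate 1 and 2 in replicate 2. Psmb5, which encodes the chymotrypsin-like subunit (chromosome 14, 54614120 to 54617995), had H3K27ac percentiles of 67.5 and 53.3 in 2-allele, 89.2 and 72.3 in NICD glands, and 17.9 and 70.3 in the wild type. In 1-allele glands it was called in replicate 2 alone, at percentile 7.6. Psmb6, which encodes the caspase-like subunit (chromosome 11, 70525324 to 70527858), was called in 2-allele replicate 1 (percentile 25.9), in no 1-allele library, at 79.6 and 85.5 in NICD glands, and at 51.8 and 43.9 in the wild type. Psmb7, which encodes the trypsin-like subunit (chromosome 2, 38588046 to 38643952), was called in all 8, at 70.8 and 81.3 in 2-allele, 4.0 and 11.4 in 1-allele, 89.8 and 84.9 in NICD glands, and 57.2 and 41.1 in the wild type. Each was near the bottom of the 1-allele lists or absent there. Psmb6 had an H3K4me3 enrichment of 18.5-fold in NICD, the highest of the 47 members called there, and 7.70-fold in wild-type glands. The medians of the called members were 11.1-fold and 7.07-fold in the same libraries. Psmb6 had no peak in the Arid1a-floxed library. Psmb5 also had no peak there, and Psmb7 had one at percentile 69.5.

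The 3 immunoproteasome genes carried both marks in NICD and wild-type glands. Psmb8 (chromosome 17, 34198195 to 34201454) was called at percentile 17.6 in 2-allele replicate 2 and not in replicate 1, in no 1-allele library, at 54.4 and 47.6 in NICD glands, and at 39.4 and 28.7 in the wild type. Its enrichments were 6.02-fold and 5.95-fold in NICD glands and 5.46-fold and 4.99-fold in wild-type glands. Psmb9 (chromosome 17, 34182030 to 34187330) was called in all 8 libraries, at 47.8 and 56.2 in 2-allele, 22.1 and 20.4 in 1-allele, 77.2 and 40.2 in NICD glands, and 48.6 and 34.7 in the wild type. Psmb9 shares its promoter peak with Tap1, a peptide transporter of the MHC class I pathway, so the call cannot be given to one gene. The Psmb8 peak also lay within 1 kb of Tap1 in 3 libraries, NICD replicate 2 being the H3K27ac library among them. Psmb10 (chromosome 8, 105935728 to 105938392) was called at 43.4 and 75.2 in 2-allele, 64.3 in 1-allele replicate 2 alone, 87.0 and 88.1 in NICD glands, and 74.8 and 72.5 in the wild type. H3K4me3 was called at 0 of the 3 in the Arid1a-floxed library, which called 19.5% of all genes. Of all genes with H3K4me3 in NICD, 69.3% were not called there. H3K4me3 stood at percentiles 71.6 (Psmb8), 78.7 (Psmb9) and 87.8 (Psmb10) in NICD glands, and at 37.2, 49.7 and 57.8 in wild-type glands. Other called genes also had a higher median in the NICD list, 82.0 and 67.3 in wild type. With 1 library a group and lists of 39420 and 17558 peaks, these ranks are not read as a change.

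Leukocytes also express the immunoproteasome. Of 14 leukocyte markers, the H3K27ac lists called 2 and 0 in 2-allele and 0 and 0 in 1-allele. They called 3 and 2 in NICD glands, and 1 and 0 in the wild type. The shares of all genes were 42.6% and 41.2% in 2-allele and 16.1% and 25.8% in 1-allele. They were 53% and 47.3% in NICD glands, and 43.1% and 40.9% in the wild type. The H3K4me3 lists called 0 in the Arid1a-floxed, 4 in the NICD and 0 in the wild-type library. In the same order, 19.5%, 63.5% and 47.4% of all genes were called. Ptprc, the pan-leukocyte gene CD45, was called for H3K27ac in both NICD libraries and 2-allele replicate 1, and Cd3e, Csf1r and Lyz2 were called in no library. The part of leukocytes in the immunoproteasome peaks was not tested, and peaks from fewer cells and weaker peaks per cell cannot be told apart in bulk glands. Of 15 other genes of MHC class I processing, 14 and 14 were called for H3K27ac in 2-allele, 12 and 12 in 1-allele, 15 and 15 in NICD glands, and 14 and 14 in the wild type. In 1-allele glands that was 12 of 15 for these genes in each replicate, beside 12 and 27 of 51 for the proteasome genes and 16.1% and 25.8% of all genes.

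Both paralogs restricted to other tissues were called nowhere. Psmb11, the thymus-specific subunit, had its nearest peak 7019 to 160749 bp from a gene end. Psma8, the testis-specific alpha subunit (chromosome 18, 14706135 to 14762301), had it 20351 to 21346 bp away. Psme2b, a copy of the activator gene Psme2, was called once, for H3K4me3 in NICD glands at percentile 15.8, in a peak it shares with a neighbouring gene.

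The regulatory cap was marked at nearly all its genes outside the 1-allele group. The 6 ATPase genes, Psmc1 to Psmc6, were called 6 and 6 times in 2-allele, 1 and 4 in 1-allele, 6 and 6 in NICD glands, and 6 and 5 in the wild type. Psmc3 was the one called in both 1-allele libraries, at percentiles 9.5 and 57.1, and it stood at 86.7 and 61.6 in NICD glands. Psmc2 and Psmc4 had no 1-allele peak, and Psmc4 had percentiles of 79.5 and 57.0 in NICD. The 11 non-ATPase subunit genes were called 11 and 11 times in 2-allele, 3 and 8 in 1-allele, 11 and 11 in NICD glands, and 11 and 10 in the wild type. Psmd11, Psmd12 and Psmd14 were the ones called in all 8 libraries. Psmd14 encodes the deubiquitinase that strips ubiquitin from substrates, and stood at 97.1 and 85.8 in 2-allele, 15.4 and 87.9 in 1-allele, 96.1 and 94.7 in NICD glands, and 76.6 and 88.7 in the wild type. Psmd2, a scaffold of the cap, Psmd4, a ubiquitin receptor, and Psmd8 had a peak in each NICD library and none in 1-allele glands. Psmd8 (chromosome 7, 29174187 to 29180673) stood at 83.3 and 69.2 in 2-allele, 88.8 and 95.7 in NICD glands, and 73.5 and 55.4 in the wild type. Its NICD enrichments were 11.2-fold and 12.8-fold.

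The assembly chaperones of the cap, Psmd5, Psmd9 and Psmd10, had no H3K27ac peak in either 1-allele library, which called 16.1% and 25.8% of all genes. With 3 genes this does not set the chaperones apart. They were called 2 and 3 times in 2-allele, 3 and 3 in NICD glands, and 2 and 1 in the wild type. Psmd9 stood at 82.1 and 65.4 in NICD and at 0.7 in wild-type replicate 1, the last percent of that list, with no call in wild-type replicate 2. Psmd5 stood at 75.2 and 66.6 in NICD and at 10.3 in wild-type replicate 1 alone. The chaperones of the barrel, Psmg1 to Psmg4, were called 4 and 4 times in 2-allele, 1 and 2 in 1-allele, 4 and 4 in NICD glands, and 3 and 2 in the wild type. Psmg2 was called in all 11 libraries, at 95.3 and 95.4 in 1-allele glands, in a peak shared with Cep76.

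The activators cap the barrel in place of the ATPases. Psme1, part of the interferon-induced activator, and Psme4, a nuclear activator, were called in all 11 libraries. Psme4 (chromosome 11, 30771775 to 30881150) kept high percentiles throughout, at 90.8 and 95.6 in 2-allele, 87.2 and 87.0 in 1-allele, 94.6 and 98.6 in NICD glands, and 98.8 and 98.6 in the wild type. Its enrichments were 7.22-fold and 6.67-fold in 1-allele, 10.19-fold and 11.7-fold in NICD glands, and 11.6-fold and 10.8-fold in the wild type. Psme2 and Psme3 were missing from 1-allele replicate 1 alone. The inhibitor gene Psmf1 was called nowhere by its ends, but at its annotated start it had a peak within 222 bp in 9 libraries and none in either 1-allele library.

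**Figure D4:**
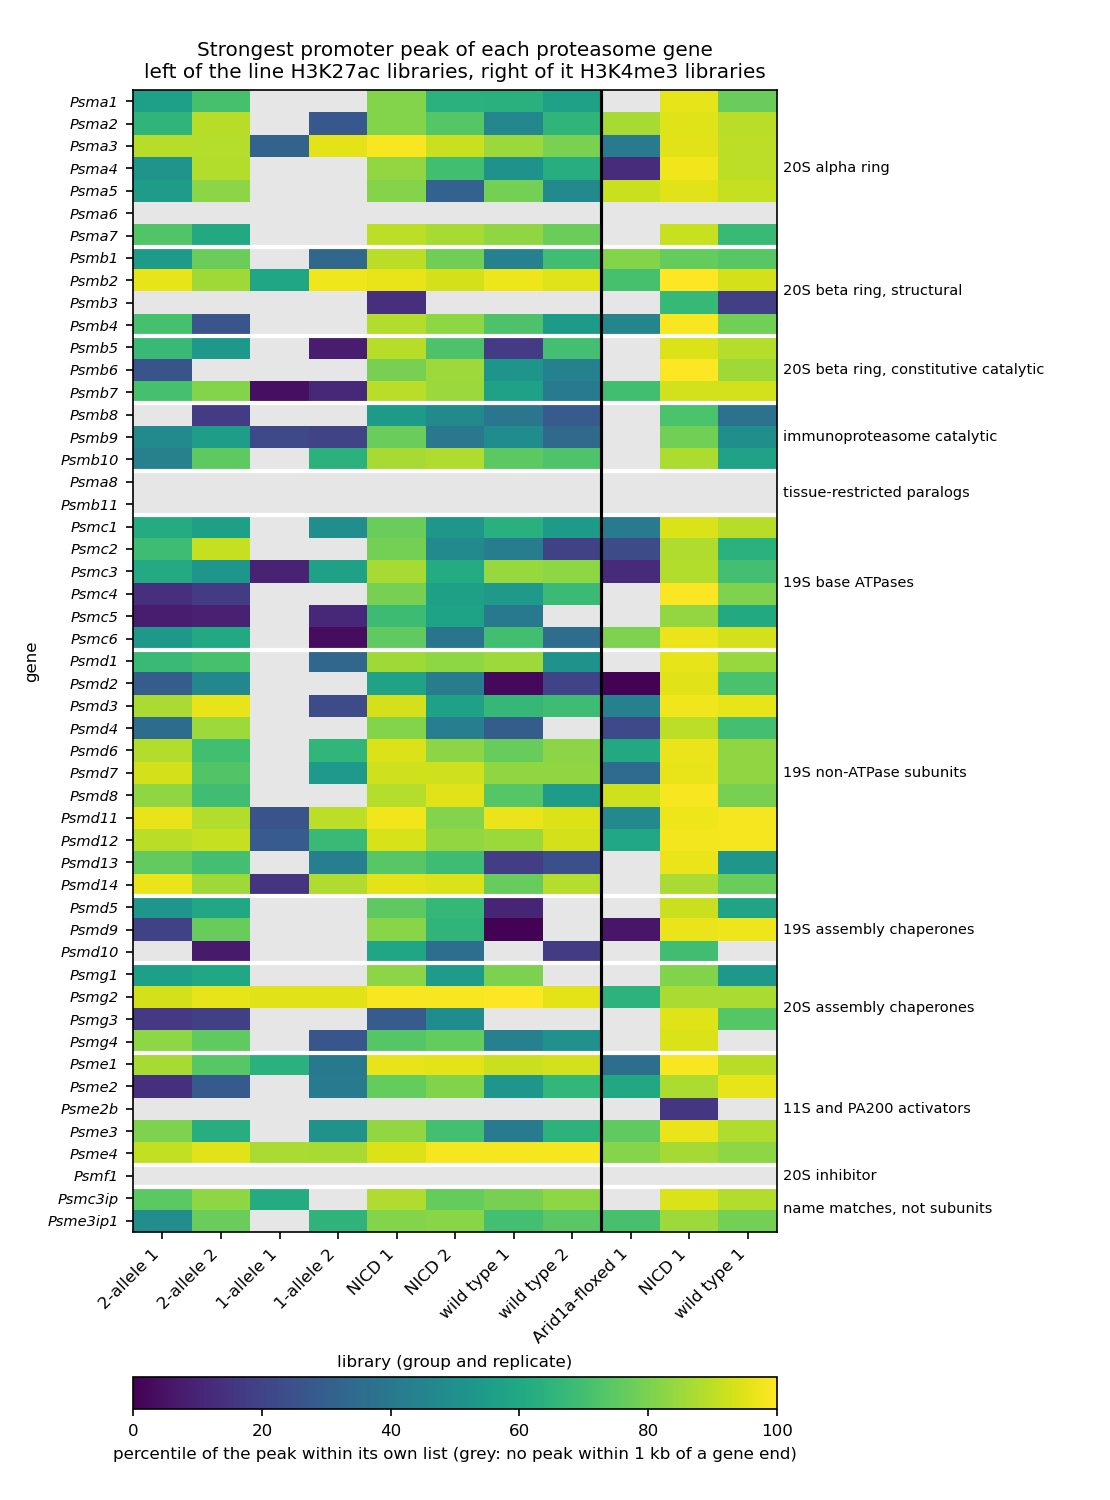
Percentile of the strongest promoter peak of each of the 51 proteasome genes (rows, by role) within each of the 11 lists (columns), with grey for no peak within 1 kb of a gene end. The 2 columns of 1-allele glands hold 12 and 27 coloured cells and the NICD H3K27ac columns 46 and 45.

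The NICD against wild-type comparison asks what active Notch adds to the gland's chromatin. Only 1 member had a peak in each NICD library and in no wild-type one (3.83% of all genes), and 0 had the opposite pattern (0.114% of all genes). It was Psmg3 (chromosome 5, 139823613 to 139826894), a chaperone of barrel assembly, with enrichments of 3.81-fold and 5.42-fold and summit pileups of 20 and 17 reads in NICD glands. Its NICD percentiles, 28.8 and 48.8, were low in those lists, and it also stood at 16.6 and 18.9 in 2-allele glands. For H3K4me3 it was called in NICD (percentile 95.3) and in wild type (73.8). In lists of 5165 peaks Psmg3 was called in neither group. Psmb4, Psmb7 and Psmd8 then had the NICD pattern (1.9% of all genes) and Psmc3 the opposite one (1.01%). Between 2 libraries and 2 an exact two-sided permutation test cannot go below 0.333, so no p is given here or for the other H3K27ac comparisons. For H3K4me3, Psmd10, Psme2b and Psmg4 were called in NICD and not in wild type, 3 of 51 (16.2% of all genes), and 0 in wild type and not in NICD (0.0731%).

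The 1-allele against NICD comparison asks what a floxed Arid1a allele adds to active Notch. In 1-allele glands 17 members lacked the H3K27ac peak that both NICD libraries had, 33.3% of the members against 18.8% of all genes, and 0 had the opposite pattern (0.00914%). Of genes called in both NICD libraries the share was 37.8% for members (17 of 45) and 40.1% for all genes, so the larger share over all members went with their more frequent NICD calls. The 17 were Psma1, Psma4, Psma5, Psma7, Psmb4, Psmb6, Psmb8, Psmc2, Psmc4, Psmd2, Psmd4, Psmd5, Psmd8, Psmd9, Psmd10, Psmg1 and Psmg3, which include core, cap and chaperone genes and no activator. In NICD glands their enrichments ran from 3.81-fold to 11.2-fold (median 8.69) in replicate 1 and from 4.98-fold to 12.8-fold (median 6.22) in replicate 2. In wild-type glands 11 of the 17 were called in both libraries, 5 in 1 and 1 in neither.

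The members missing from 1-allele glands tended to rank lower in NICD glands. The mean NICD percentile had a median of 68.8 in the 17 and 83.1 in the 28 members called in at least 1 1-allele library, against 65.1 and 87.8 in other genes. Within classes of NICD percentile, the missing share was 2 of 2 members below 50 (93.4% of other genes), 7 of 11 from 50 to 70 (72.4%), 4 of 11 from 70 to 80 (46.6%), 3 of 13 from 80 to 90 (23.2%) and 1 of 8 above 90 (5.47%). Psmd8 was the 1 missing member above 90. The members' shares lay on both sides of those of other genes, and counts this small were not tested. In lists of 5165 peaks, Psma7, Psmb4 and Psmd8 had the pattern (2.39% of all genes) and Psmc3 the opposite one (0.758%). A shorter list adds no peak, so only members that rank high in NICD glands can hold the pattern there. Without 1-allele replicate 2 the count was 33 (30.8% of all genes), since that library called 16 members that replicate 1 did not.

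**Figure D5:**
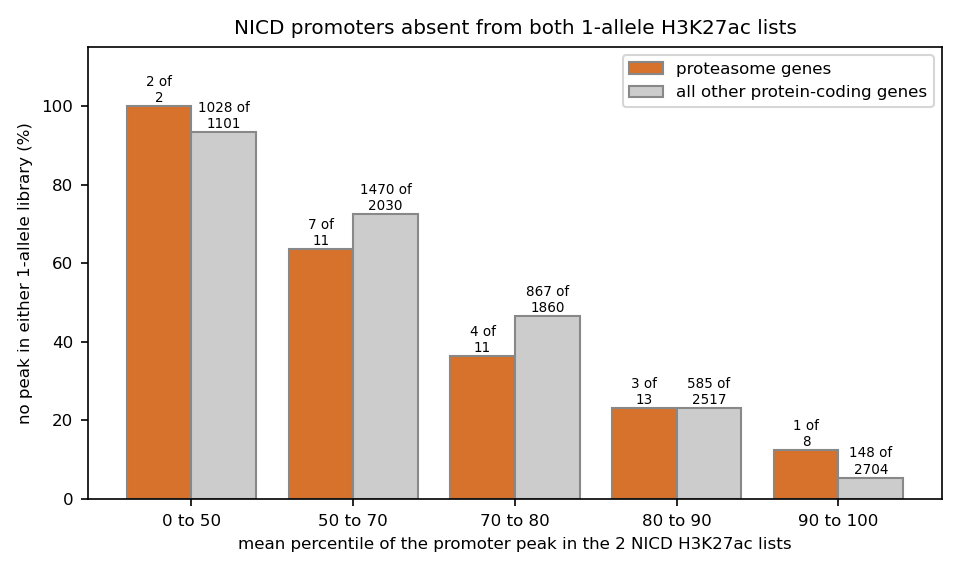
Percent of genes called in both NICD H3K27ac libraries that had no peak in either 1-allele library, by mean NICD percentile, for proteasome genes (orange) and all other protein-coding genes (grey), with the counts above the bars. The share falls with rank in both, to 1 of 8 and 148 of 2704 above percentile 90.

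Floxing both alleles is read from the 2-allele and NICD libraries. No member separated these groups: 0 had a peak in each 2-allele library and in no NICD one (0.0228% of all genes) and 0 of the 45 called in both NICD were missing from both 2-allele libraries, against 8.1% of all genes so called and 3.8% of all genes tested. Psmb6, Psmb8 and Psmd10 each missed 1 of the 2-allele libraries. Below percentile 70 in NICD, where 48.0% (0 to 50) and 12.3% (50 to 70) of other genes were missing, 0 of 2 and 0 of 11 members were. In lists of 5165 peaks Psmc2, Psmd13 and Psmg4 had peaks in each 2-allele library and in no NICD one (1.36% of all genes). The sources used here do not say how the 2-allele lists were called, so the genotype and the making of the list cannot be told apart. The design shares the NICD libraries between this comparison and the one before it.

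Set against each other, 14 members had a peak in each 2-allele library and in no 1-allele one (12% of all genes), and 0 the other way (0.0411%). Of genes called in both 2-allele libraries the share was 33.3% of members (14 of 42) and 30.8% of all genes. The 14 are the 17 named above without Psmb6, Psmb8 and Psmd10. In lists of 5165 peaks 4 members had the pattern, Psmc2, Psmd3, Psmd8 and Psmg4 (2.82% of all genes), and Psmc3 had the opposite one (0.749%). Without 1-allele replicate 2 the count was 30 (23.2% of all genes).

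Over the H3K27ac lists as a set, 36 members (70.6%) were called in both 2-allele, both NICD and both wild-type libraries, against 34.1% of all genes. Of these 36, 9 were called in neither 1-allele library (24.1% of the genes so called), 15 in replicate 2 alone (30.5%), 1 in replicate 1 alone (6.22%) and 11 in both (39.2%). The 11 were Psma3, Psmb2, Psmb7, Psmb9, Psmc3, Psmd11, Psmd12, Psmd14, Psme1, Psme4 and Psmg2, so 21.6% of members were called in all 8 libraries, against 13.4% of all genes. The 1 called in replicate 1 alone was Psmc3ip, which is no subunit. In lists of 5165 peaks 8 of the 11 were called in all 8 libraries (6.82% of all genes), and Psmb7, Psmb9 and Psmc3 were not.

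For H3K4me3, with 1 library a group and no replicate check, 20 members were called in the NICD and not in the Arid1a-floxed library (39.2% against 44.1% of all genes), and 0 the other way (0.00914%). Of genes called in NICD that was 42.6% of members and 69.3% of all genes. Above NICD percentile 90, where 31 of the 47 members stood, 11 were missing (35.5%), against 42.3% of other genes there. The 20 include Psmb5, Psmb6 and all 3 immunoproteasome genes. Psme4, Psmd12 and Psmb2 kept peaks in the Arid1a-floxed library, at percentiles 82.0, 59.8 and 70.7. In lists of 5175 peaks 13 members were called in NICD alone (10.8% of all genes) and 3 in the Arid1a-floxed library alone, Psmb1, Psme3ip1 and Psme4 (6.54%).

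The marks were then set against each other. All 3 H3K4me3 libraries called 27 members (52.9%), against 19.3% of all genes. Of those 27, 8 had no H3K27ac in either 1-allele library: Psma4, Psma5, Psmb4, Psmc2, Psmd2, Psmd4, Psmd8 and Psmd9. That is 29.6% of the members with H3K4me3 in the Arid1a-floxed library, close to the 28.5% of all genes with it (5.56% of all genes tested). Of the 28 members with H3K27ac in a 1-allele library, 9 had no H3K4me3 in the Arid1a-floxed one (32.1%), among them Psmb9, Psmb10 and Psmd14, against 50.9% of all genes with that H3K27ac (14.4% of all genes tested). Whether those libraries share an allele number is unknown. Of members with H3K4me3 in NICD, 45 of 47 (95.7%) also had H3K27ac in both NICD libraries, against 73.4% of all genes so called. In wild type that was 37 of 44 (84.1%), against 76.9%. Across members the ranks of the marks were only weakly ordered together, with a Spearman rho of 0.29 and 0.22 between the NICD H3K27ac replicates and NICD H3K4me3 (46 and 45 genes). Between the NICD H3K27ac replicates it was 0.76 (45 genes). These correlations run over genes of the same libraries and carry no p.

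Several member peaks also lay within 1 kb of an end of a neighbouring gene, so a call may belong to that neighbour. Either end of the neighbour counted, without regard to strand, so a shared peak need not mean a shared promoter. Psma2 shares its peak with Mrpl32, Psma7 with Ss18l1, Psmc2 with Dnajc2, Psmc5 with Ftsj3, Psmd13 with Sirt3, Psme2 with Rnf31 and Psmg1 with Brwd1. Psma4 shares one with Hykk, and Psmd8 with Catsperg1 in 3 libraries. In all, 16 members shared a peak in at least 1 library. Of the other 35, 11 had the NICD-not-1-allele pattern (31.4%, against 33.3% of all 51) and 9 the 2-allele-not-1-allele pattern (25.7%, against 27.5%). Genes that work with the proteasome were counted the same way, beside 16.1% and 25.8% of all genes called in 1-allele and 53% and 47.3% in NICD glands. Of 16 other subunits and cofactors, 15 and 15 were called in 2-allele, 8 and 13 in 1-allele, 15 and 15 in NICD glands, and 15 and 15 in the wild type. Of 10 genes around Nfe2l1 and Nfe2l2, the counts were 9 and 9 in 2-allele, 6 and 7 in 1-allele, 9 and 9 in NICD glands, and 9 and 9 in the wild type. Ddi2, the protease that activates Nrf1, and Mafg had the NICD-not-1-allele pattern (18.8% of all genes), while Nfe2l1 itself was missing from 1-allele replicate 1 alone. Of 8 ubiquitin, E1 and segregase genes, 7 and 7 were called in 2-allele, 1 and 4 in 1-allele, 8 and 7 in NICD glands, and 6 and 7 in the wild type. Rps27a, which encodes a ubiquitin fusion protein, and Ufd1, a segregase cofactor, were among those with the NICD-not-1-allele pattern.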

How the data were processed

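Peak lists of 11 ChIP-seq libraries were used. The submitters' processing notes name Bowtie2, MACS2 and the GRCm38 (mm10) build. The authors made 9 of the lists with MACS 2.0.10.20131216, per the file headers, from single libraries with duplicates removed and no control, at a q-value threshold of 0.05, a local background of up to 10 kb and an effective genome of 2.7 Gb. For each peak the authors deposited the pileup signal at its summit, the −log10 of its q-value and its fold over local background. They were used here to describe, rank or filter peaks. Folds of different groups printed side by side come from libraries of different depth and are not read as changes. Both deposited 2-allele lists give positions alone and were read as counted from 0. Their file order was used as rank: of their first 1000 regions, 92.6% to 96.8% overlapped the strongest 5165 peaks of a NICD library, against 3.6% to 7.3% of the last 1000.

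Only peaks on the assembled autosomes and sex chromosomes were used. Gene spans came from RefSeq (GRCm38.p6, 21887 protein-coding genes), without strand, so both ends were used; the promoter table gave strand and start for 43 members, and of several starts the most often called was used. Calls were made in Python 3.11.15 with numpy 2.4.6 and pandas 2.3.3, after testing on simulated peak lists. Groups were compared by counting genes called in all libraries of one and none of the other, with no test, since 2 libraries against 2 cannot go below an exact p of 0.333. Alternatives were windows of 500 bp and 2.5 kb, lists of equal length, a −log10 q of at least 5, peak midpoints, ranking by fold enrichment, ends chosen by H3K4me3 and each replicate left out. Annotated starts, members with no shared peak, and leaving out Psmc3ip and Psme3ip1 were added after seeing the data. All members are accounted for. Those that separate groups and the catalytic, immunoproteasome and tissue-restricted genes were described one by one. Of other genes, only members of listed gene groups (94 of 95 names matched) and neighbours sharing a peak were named. The members, lists and motifs were chosen with earlier results of these data known.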

Additional observations from a re-analysis of the deposited data

How the results depend on the processing

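No paired analysis was possible because the results are counts of calls with no test, and the replicate numbers mark no shared animal or batch. Brackets give the share of all genes with that pattern at that setting, for most of the counts. Between NICD and wild type, members with peaks in each NICD library and in no wild-type one numbered 1 (3.83%). The count was 3 in lists of 5165 peaks (1.9%), 2 in lists of at most 14373 peaks (2.38%) and 7 with a −log10 q of at least 5 (5.84%). With 1 replicate left out it was 1 to 6. The 6 came without wild-type replicate 1 (7.62%), and 2 without NICD replicate 2 (7.88%) or wild-type replicate 2 (5.94%). The opposite count was 0 (0.114%), and 1 in lists of 5165 peaks (1.01%). Between 1-allele and NICD, 17 members were missing (18.8%). The count was 3 in lists of 5165 peaks (2.39%), 11 in lists of at most 14373 (11.2%) and 27 with a −log10 q of at least 5 (23.4%). It was 11 among the 35 members that share no promoter peak. With 1 replicate left out it was 17 to 33, the 33 without 1-allele replicate 2 (30.8%). The opposite count was 0 (0.00914%), and 1 in lists of 5165 (0.758%). Between 2-allele and NICD, the count on the 2-allele side was 0 (0.0228%), and 3 in lists of 5165 (1.36%) and 1 in lists of at most 14373 (0.841%). On the NICD side it was 0 (3.8%), and 0 to 2 with 1 replicate left out. Between 2-allele and 1-allele, the 14 (12%) were 4 in lists of 5165 (2.82%) and 9 among those 35. They were 15 to 30 with 1 replicate left out, the 30 without 1-allele replicate 2 (23.2%). The opposite count was 0 (0.0411%), and 1 in lists of 5165 (0.749%). For H3K4me3, the 3 members in NICD and not wild type (16.2%) were 8 in lists of 5175 peaks (8.16%), and 3 were then in wild type alone (5.95%). The 20 missing from the Arid1a-floxed library (44.1%) were 13 in lists of 5175 (10.8%), 32 with a −log10 q of at least 5 and 11 among those 35. In lists of 5175, 3 were in that library alone (6.54%). Over these comparison counts and all alternatives, 112 values stayed within 1.5 times and 28 did not. Those with windows of 500 bp and 2.5 kb were among the 112, as were many counts of 0 that stayed 0. A count has no sign, so a reversal could not be seen in it. Between 2-allele and NICD the larger side depended on the setting. Lists of 5165 gave 3 on the 2-allele side and 0 on the NICD side. With 1 replicate left out, the 2-allele side stayed 0 and the NICD side reached 2. By construction, shorter lists and a stricter q hold fewer peaks, members sharing no peak are fewer, and fewer libraries ask less of a gene. A list without a peak does not show the mark to be absent: at 7.96 M to 20.8 M tags, without a control library, weak or wide marks can go uncalled, and both 2-allele lists have no stated depth.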

Other observations

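Of 6 annotated proteasome pseudogenes, Psma5-ps was the only one called, in the NICD H3K4me3 library alone. The other 5 had no peak within 1 kb of an end in any of the 11 lists.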
